A study of Mus musculus with 18 samples.

Results

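The genes described here are 9 members of the machinery by which phagocytes recognise and engulf dying cells (efferocytosis), chosen by name: the receptor tyrosine kinase genes Axl, Mertk and Tyro3, the bridging ligand genes Gas6, Pros1 and Mfge8, the phosphatidylserine receptor gene Timd4, and the "do not eat me" signal gene Cd47 with its receptor gene Sirpa. All 9 had a row in each of the 3 bulk count tables and in the 10x table. The Drop-seq table had a row for 8 of them and none for Timd4. The bulk tables held 35842 genes for the Ras tumours and the cell lines and 18267 genes for the CD11b-positive cells.

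The samples were mouse gliomas and cells taken from them, all in Boy/J mice, and the study asked how the oncogenic driver bears on tumour-associated macrophages and on the response to inhibition of the CSF1 receptor, on which macrophages depend for survival. Ras tumours carried HRasV12 with a dominant negative p53. Mice bearing them were gavaged daily with PLX3397, a CSF1R kinase inhibitor, at 100 mg/kg from day 7 after implantation until they were moribund (n = 4), or given vehicle (n = 4, libraries that also carry the treatment label untreated), and whole tumour tissue was sequenced. PDGFB-driven tumours were treated for 3 days from day 14 with PLX3397 at the same dose (n = 2) or with vehicle (n = 1), and CD11b-positive cells were isolated from them on microbeads and sequenced. Cell lines came from Ras tumours (n = 2, serum-free DMEM/F12 with EGF and FGF) and from PDGF tumours (n = 3, TSM medium with EGF, FGF, PDGFAA and PDGFBB), so the driver and the medium cannot be told apart. Dissociated Ras tumours, given no drug, made 1 library by 10x and 1 by Drop-seq.

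Dying cells expose phosphatidylserine, a lipid that living cells keep on the inner face of the membrane. GAS6 and protein S (the product of Pros1) bind it and bridge it to the TAM receptors TYRO3, AXL and MERTK. GAS6 serves all 3 of these receptors, whereas protein S acts on TYRO3 and MERTK. MFG-E8 bridges the same lipid to alpha-v integrins, and TIM-4 (Timd4), found on resident macrophages, tethers it directly. CD47 on the target engages SIRP-alpha on the phagocyte and restrains engulfment. In brain, MERTK is known from microglia, AXL from microglia and macrophages activated by interferon or injury, and TYRO3 from neurons and other neural cells.

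In GRCm38, Axl (chr7:25757273-25788705, minus strand) and Mfge8 (chr7:79133768-79149060, minus) lie on chromosome 7, and Mertk (chr2:128698956-128802894), Sirpa (chr2:129592835-129632228) and Tyro3 (chr2:119797733-119818104) on the plus strand of chromosome 2. Pros1 (chr16:62854307-62929346) and Cd47 (chr16:49800533-49915010) lie on the plus strand of chromosome 16, Timd4 (chr11:46810800-46844332) on the plus strand of chromosome 11 and Gas6 (chr8:13465374-13494490) on the minus strand of chromosome 8.

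The promoters of the 3 receptor genes are shown because the results below turn on these receptors. Each sequence is the RefSeq reference for GRCm38.p6, 250 bases before to 50 after the annotated start, on the gene's own strand, and 8 of the 9 members matched an entry, all but Sirpa. Capitals mark GC boxes (CCGCCC or its reverse complement GGGCGG) and the TEAD motif CATTCC or its reverse complement GGAATG.
Axl: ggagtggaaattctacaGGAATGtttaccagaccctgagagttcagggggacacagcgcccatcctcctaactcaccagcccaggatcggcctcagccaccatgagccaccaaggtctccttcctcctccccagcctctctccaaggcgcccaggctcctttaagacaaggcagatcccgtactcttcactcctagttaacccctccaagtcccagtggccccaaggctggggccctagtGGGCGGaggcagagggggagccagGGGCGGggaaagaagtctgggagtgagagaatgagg
Mertk: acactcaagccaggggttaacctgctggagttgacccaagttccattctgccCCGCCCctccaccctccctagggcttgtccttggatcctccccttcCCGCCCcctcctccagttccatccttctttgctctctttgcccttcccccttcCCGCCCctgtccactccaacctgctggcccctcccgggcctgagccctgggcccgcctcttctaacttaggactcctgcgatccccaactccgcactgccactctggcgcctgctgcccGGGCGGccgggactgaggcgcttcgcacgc
Tyro3: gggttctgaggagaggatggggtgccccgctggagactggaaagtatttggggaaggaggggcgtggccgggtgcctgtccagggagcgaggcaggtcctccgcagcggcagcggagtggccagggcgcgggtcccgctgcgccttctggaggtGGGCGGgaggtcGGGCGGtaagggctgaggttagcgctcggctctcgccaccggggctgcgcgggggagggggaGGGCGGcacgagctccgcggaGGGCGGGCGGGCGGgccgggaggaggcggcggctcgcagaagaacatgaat
The Axl window lies at chr7:25788684-25788983 on the minus strand, the Mertk window at chr2:128698665-128698964 and the Tyro3 window at chr2:119799264-119799563, both on the plus strand. The Tyro3 window lies wholly within the gene span given above, so its annotated start is not the first base of that span. Axl held 2 GC boxes and 1 TEAD motif, Mertk held 4 GC boxes and Tyro3 held 6, of which 3 overlap in 1 run near the start. A GC box was present in 35.7% of 32851 promoter windows of the same length and the TEAD motif in 14.7%. The GC content was 60.3% in the Axl window, 66.0% in the Mertk window and 73.3% in the Tyro3 window. All members but Timd4 among the 8 with a promoter entry held at least 1 GC box.

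Depth per library, in M (mega) counts, ran between 31.3 and 35.9 for Ras tumours, between 26.8 and 30.9 for CD11b-positive cells and between 32.0 and 35.9 for lines. Levels are given as counts per M (CPM) after TMM scaling, and levels between genes only as CPM per kb of exon. Genes are termed called where edgeR's quasi-likelihood test gave an adjusted p (Benjamini-Hochberg, over all genes tested) under 0.05. Summed over 7 pan-myeloid marker genes, levels were 6970 to 9197 CPM in the CD11b-positive PLX3397 libraries and 8327 CPM in the vehicle library. The same sum was 260.9 to 829.4 CPM in PLX3397 Ras tumours and 1007 to 1723 CPM in vehicle Ras tumours, and 5.47 to 10.2 CPM in Ras lines and 5.86 to 94.3 CPM in PDGF lines. The highest line value, 94.3 CPM, belonged to PDGF line 3. The titles number the mice of the tumour libraries, whereas nothing in the labels says that the lines of a group came from separate animals, so p-values between lines measure the spread between these lines, which may be technical.

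In the 10x library, 3320 of 4384 barcodes passed the filters, with a median of 8351 unique molecular identifiers (UMIs), and formed 14 clusters. The Drop-seq library kept 4901 of 5000 barcodes at a median of 1396 UMIs, in 8 clusters. The 9 members were left out of the genes used for clustering, and the libraries shared 0 barcodes. In each library 1 cluster was named from the pan-myeloid markers and is termed the myeloid cluster, 515 cells in 10x and 178 cells in Drop-seq. The 10x one had all 7 of 7 markers at 2-fold or more. Unnamed cluster 9 of 10x (24 cells) also had 7 of 7, and the neutrophil-like cluster 1 (83 cells) had 4 of 7. Both are counted among the other cells, or the rest, in the values below. Each tumour library is a single sample, so values are CPM of summed UMIs with exact 95% Poisson intervals that cover counting error only, and no test was made.

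Axl and Mertk were both highest in the myeloid cells, and Mertk was the more restricted of the pair. MERTK is the receptor most associated with uptake by resident phagocytes. Mertk stood at 79.0 CPM (72.4 to 86.2) in 10x myeloid cells, against 2.09 CPM in all other cells, a ratio of 37.7, and 83.6% of its 614 UMIs fell in the 515 myeloid cells. In Drop-seq it stood at 190.5 CPM (138 to 256) in myeloid cells, against 2.25 CPM in the others, a ratio of 84.5. The myeloid cluster held 11.9% of all UMIs in 10x and 2.42% in Drop-seq, so Mertk was far out of proportion to the RNA of these cells in both libraries.

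Axl was higher in myeloid cells but spread more widely. It stood at 248.6 CPM (236.6 to 261.0) in 10x myeloid cells, against 47.9 CPM in the rest, a ratio of 5.19. Drop-seq gave 138.6 CPM (94.8 to 195.6) in myeloid cells, against 21.8 CPM in the rest, a ratio of 6.36. Only 41.1% of its UMIs in 10x and 13.6% in Drop-seq came from myeloid cells. Among the other 10x clusters, Axl reached 97.3 CPM in cluster 6 (led by Nppb, Gm26772 and Nefl), 93.2 CPM in cluster 5 (led by Snhg11) and 83.0 CPM in cluster 8 (led by Lcn2), and it was 33.7 CPM in the dividing cluster 0 and 37.7 CPM in the largest cluster, 4. None of these 5 clusters met the full naming rule. At 2-fold, cluster 4 had 5 of 7 oligodendrocyte precursor markers, cluster 5 had 5 of 6 neuron markers and cluster 8 had 3 of 7 tumour cell markers. Cluster 6 had 1 of 6 neuron markers, and cluster 0 had 0 of 10 microglia markers. The Hras levels of the 5 clusters, which mark no allele, were 57.1 to 180.5 CPM, against 72.0 CPM in myeloid cells.

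Tyro3, the receptor of neural cells, was nearly absent from the myeloid cells. Only 3 of its 288 UMIs in 10x were in the myeloid cluster, 0.462 CPM, against 5.91 CPM in the rest. Drop-seq gave 0 of 51 UMIs in myeloid cells, with an upper limit of 15.97 CPM, against 5.47 CPM in the rest. At that depth the Drop-seq count cannot show a difference. Of the 3 myeloid UMIs in 10x, 2 came from a group of 15 cells within the cluster whose leading genes (Cspg5, Lhfpl3, Olig1 and Tnr) are those of oligodendrocyte precursors. Mertk, Axl and Tyro3 were thus ordered by the share of their 10x UMIs in myeloid cells, at 83.6%, 41.1% and 1.04%.

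**Figure D1:**
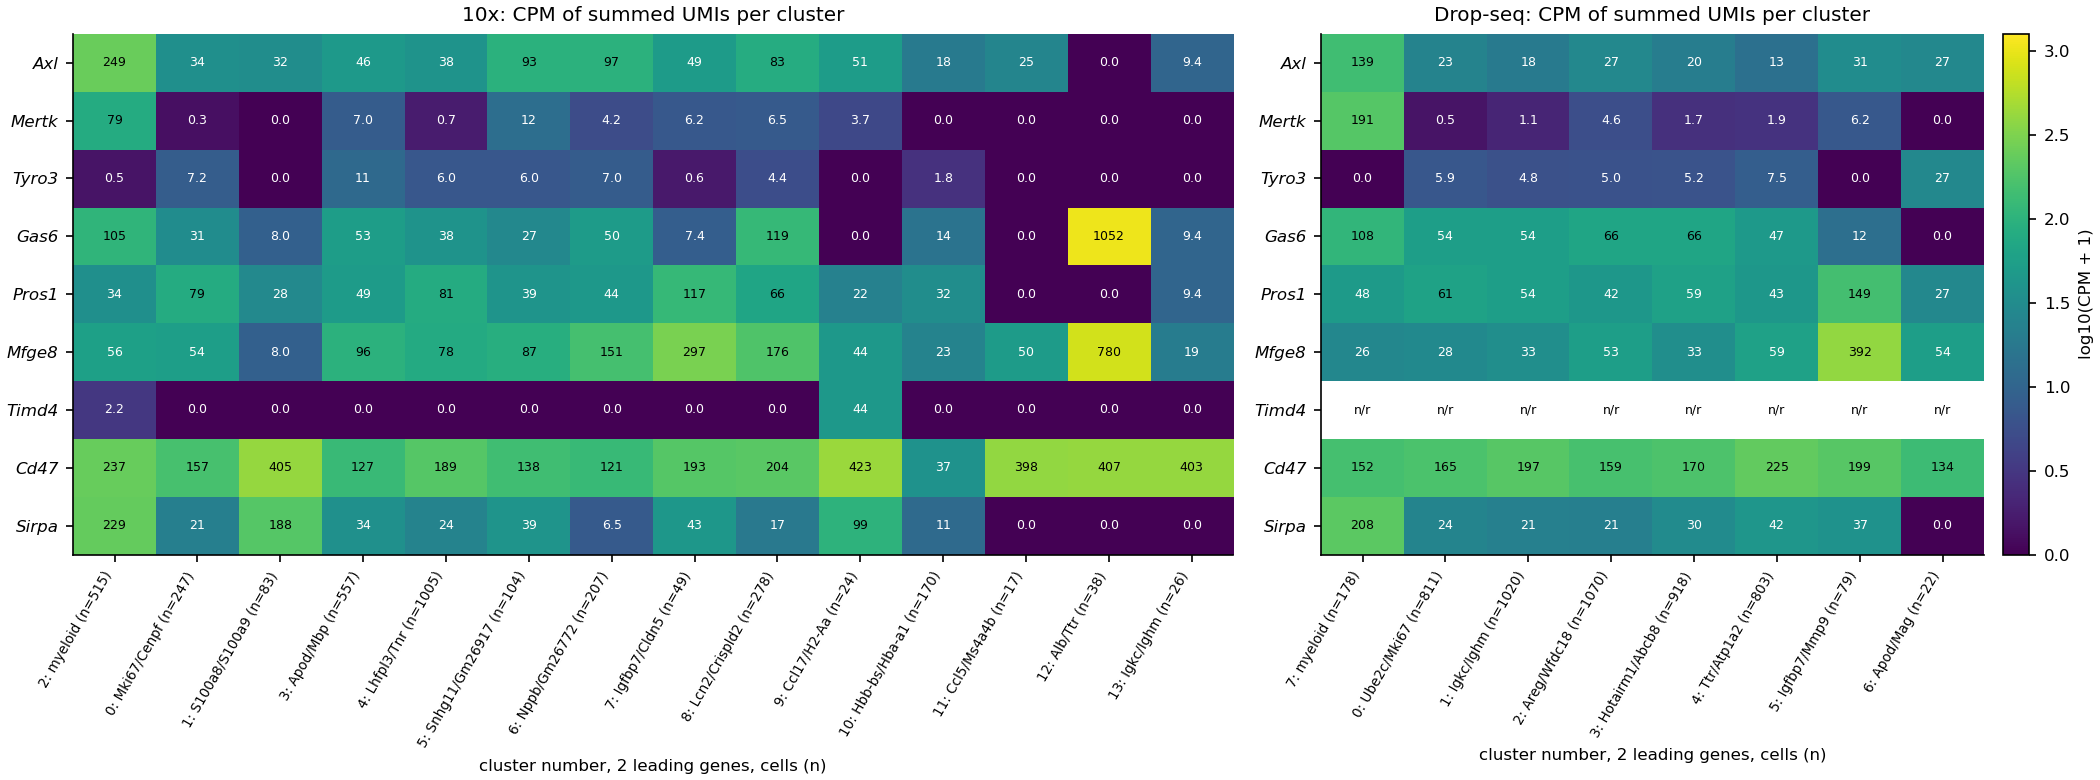
Level of each member (rows) in each cell cluster (columns, labelled with the number, leading genes and cell number) of the 10x and Drop-seq libraries, as log10(CPM + 1) of summed UMIs, with the myeloid cluster at the left of each panel. Mertk is brightest in the myeloid column (79.0 CPM in 10x, 190.5 CPM in Drop-seq) and at most 12.03 CPM in the other 10x clusters, whereas Axl, Cd47 and Mfge8 extend over many clusters, and Tyro3 is low throughout.

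Among the ligands, Gas6 was shared between myeloid and other cells, while Pros1 and Mfge8 were mainly outside the myeloid cluster. Gas6 stood at 104.9 CPM in 10x myeloid cells, against 46.8 CPM in the rest, and at 108.3 CPM in Drop-seq myeloid cells, against 57.2 CPM in the rest. Its highest 10x cluster was cluster 12, 38 cells led by Alb, Ttr and Krt18, genes of liver and other epithelia, at 1052 CPM (714.5 to 1493) from 31 UMIs. Those cells had a median of 679 UMIs. Cluster 8, led by Lcn2, was next at 118.8 CPM, and that cluster also exceeded the all-cell level of Axl (83.0 CPM against 71.7 CPM).

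Pros1 stood at 34.4 CPM in 10x myeloid cells, against 74.3 CPM in the rest. The large cluster 4, whose leading genes Lhfpl3, Tnr and Pcdh15 are those of oligodendrocyte precursors, held 53.2% of the Pros1 UMIs at 80.7 CPM, and it held 45.9% of all UMIs. The dividing cluster 0 was at a like level, 79.0 CPM. Its highest level was 117.1 CPM in cluster 7, 49 cells led by vascular and matrix genes (Igfbp7, Cldn5, Col1a1). In Drop-seq Pros1 was 47.6 CPM in myeloid cells, against 52.9 CPM in the rest, within counting error, and its highest level was again in the cluster led by Igfbp7, Mmp9 and Col1a1 (149.2 CPM).

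Mfge8 was highest in the clusters led by epithelial and by vascular genes. It stood at 56.1 CPM in 10x myeloid cells, against 98.6 CPM in the rest, with 780 CPM in cluster 12 and 297 CPM in cluster 7. In Drop-seq Mfge8 was 26.0 CPM in myeloid cells (9.53 to 56.6), against 47.1 CPM in the rest, and 391.6 CPM in the Igfbp7 cluster. Both platforms placed Mfge8 higher in the Igfbp7-led cluster than in myeloid cells.

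Timd4 was rare. Its 26 UMIs in 10x comprised 14 in the myeloid cluster (2.16 CPM) and 12 in cluster 9, 24 cells led by Ccl17, Ccl22 and class II genes (43.8 CPM), and every other cluster was at 0. Cluster 9 leads with genes typical of dendritic cells, but it was left unnamed by the marker rule. A Timd4 UMI was found in 1.36% of the myeloid cells.

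Of the inhibitory pair, Sirpa was at a higher level in myeloid cells than in the rest, and Cd47 was found throughout. Sirpa, the receptor, stood at 229 CPM in 10x myeloid cells, against 23.1 CPM in the rest, a ratio of 9.92. In Drop-seq it stood at 207.9 CPM in myeloid cells, against 25.4 CPM in the rest. Myeloid cells held 57.2% of the Sirpa UMIs in 10x and 16.8% in Drop-seq. Neutrophil-like cells also carried it, at 188.3 CPM, as did cluster 9 at 98.6 CPM. Cd47, the ligand, was present in every 10x cluster. Cd47 stood at 237 CPM in 10x myeloid cells, against 180 CPM in the rest, and its range over clusters ran from 37.3 CPM in erythroid-like cells to 423 CPM in cluster 9. Neutrophil-like (405 CPM), B cell-like (403 CPM) and Gzma- and Nkg7-led cells (398 CPM) were also near the top. In Drop-seq Cd47 was 151.6 CPM in myeloid cells, against 177.6 CPM in the rest, and the interval of the myeloid value (105.6 to 210.8) covers the other.

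Depth enters the shares of cells with a UMI. Thinned to 1000 UMIs per 10x cell, 19.6% of 489 myeloid cells had an Axl UMI, 5.52% a Mertk UMI and 18.8% a Sirpa UMI, against 57.3%, 33.4% and 65.8% of the 515 cells unthinned. In the myeloid cluster of 10x, 157 cells held UMIs of both Axl and Mertk, 138 held Axl alone, 15 held Mertk alone and 205 held neither. In Drop-seq 4 cells held both, 25 held Axl alone, 30 held Mertk alone and 119 held neither. At the Drop-seq depth an undetected UMI says little about a cell.

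Counted as members at 2-fold or more above all other cells, the myeloid cluster had 5 of 9 in 10x (Axl, Mertk, Gas6, Timd4, Sirpa), where 12.7% of 15061 genes with at least 20 UMIs were, and 3 of 8 in Drop-seq (Axl, Mertk, Sirpa), where 9.11% of 14908 genes were. Of 57 other efferocytosis genes in 7 lists, the opsonin and bridge list was the most myeloid in 10x, with 6 of 8 genes (Thbs1, Anxa1, Anxa5, C1qa, C1qb, C1qc). Unlike the members, genes of these lists were not left out of the clustering, so the list counts may be partly built in. C1qa, C1qb and C1qc were among the 10 leading genes of the 10x myeloid cluster. The uptake receptor list had 5 of 13 with a UMI (Stab1, Cd300lf, Cd300lb, Itgb5, Cd36). The engulfment list had 2 of 8, the shedding and feedback list 4 of 6 and the after-uptake list 5 of 8 in 10x. Drop-seq gave 5 of 8 for opsonins and bridges, 4 of 13 for uptake receptors, 3 of 8 for engulfment, 4 of 7 for inhibitory partners, 3 of 6 for shedding and feedback and 3 of 8 after uptake. The inhibitory list had 5 of 8 in 10x, including Ptpn6, the phosphatase recruited by SIRP-alpha, and Sirpb1a, Sirpb1b and Sirpb1c, close relatives of Sirpa whose reads counting could split.

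By likeness over the 14 clusters of the 10x library, the genes whose log2(CPM + 1) profile was closest to that of Axl among 7952 were Mfsd1 (Pearson r = 0.95), Pmepa1 (0.93) and Tpp1 (0.93). Closest to Mertk were Slc7a2 (0.92), Fcrls (0.83) and Itgb5 (0.82). Closest to Gas6 were Fads1 (0.90), Fuom (0.89) and Oplah (0.88), each highest in cluster 12, at 170, 67.8 and 136 CPM. That cluster had 38 cells with a median of 679 UMIs, and 31 Gas6 UMIs there made 1052 CPM. The peaks of these 3 genes thus rest on fewer UMIs still. How far this 1 sparse cluster sets their correlations with Gas6 was not tested. All clusters share 1 library, and these values are descriptions.

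Within the myeloid cells, 5 sub-clusters were seen in 10x, defined after the first clustering had been examined. Sub-cluster 2 was monocyte-derived macrophage-like (90 cells, led by Ccl24, Ccr2 and Plac8, Ccr2 at 780 CPM), and sub-cluster 3 was microglia-like (45 cells, Siglech, Gpr34, Tmem119). Sub-cluster 1 (166 cells) had interferon-response genes (Rsad2, Cmpk2, Ifit2) beside Mmp12 and Gpnmb among its leading genes and was unnamed. Sub-cluster 0 (199 cells), led by Rasl11a, Fabp7, Igfbp2 and Hbb-bs, was unnamed too. Fabp7 is on the tumour cell marker list and Hbb-bs on the erythroid list, and the part of other cells' RNA in this sub-cluster was not tested. Gas6 differed most between them: 1 UMI, 1.05 CPM (0.0266 to 5.85), in the monocyte-derived macrophage-like cells, and 214.6 CPM (141.4 to 312.2) in the microglia-like cells. Sub-cluster 1 was between them for Gas6 at 129.7 CPM.

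Axl and Mertk were highest in sub-cluster 1, not in the microglia-like cells where Gas6 was highest. Like Gas6, Axl was lowest in the monocyte-derived macrophage-like cells, with sub-cluster 4 close to them. Mertk was highest in sub-cluster 1 at 108.3 CPM (98.5 to 118.9), against 33.6 CPM in the monocyte-derived macrophage-like cells and 39.7 CPM (12.9 to 92.7) in the microglia-like cells. Axl was 304.9 CPM in sub-cluster 1, 102.8 CPM in the monocyte-derived macrophage-like cells and 182.8 CPM (115.9 to 274.3) in the microglia-like cells. Sub-cluster 0 had Axl at 238.6 CPM and Mertk at 22.6 CPM, and the 15 cells of sub-cluster 4 had Axl at 108.5 CPM and Mertk at 29.9 CPM. Median depth differed between the sub-clusters, at 2707 UMIs in sub-cluster 0, 24100 in sub-cluster 1, 10880 in sub-cluster 2, 2107 in sub-cluster 3 and 26254 in sub-cluster 4, and its part in these levels was not tested.

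Pros1 and Cd47 also varied among the myeloid cells. Pros1 was 143 CPM (84.8 to 226) in the microglia-like cells, against 17.8 CPM (10.4 to 28.6) in the monocyte-derived macrophage-like cells. Cd47 went the other way, at 574 CPM (527 to 624) in the monocyte-derived macrophage-like cells, against 119 CPM (66.7 to 196.6) in the microglia-like cells. Sirpa was close in all 3 of sub-clusters 1, 2 and 3, at 254, 261 and 254 CPM. In Drop-seq a microglia-like sub-cluster of 48 cells had Pros1 at 108.4 CPM, against 28.5 CPM in the other 130 cells. Mertk was at 289.0 CPM there, against 159.5 CPM in the other cells, and the intervals overlapped for both genes. Those 130 cells were unnamed and led by Cacng4, Gpm6b, Olig2 and Clec4n, of which Olig2 is on the oligodendrocyte precursor list.

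**Figure D2:**
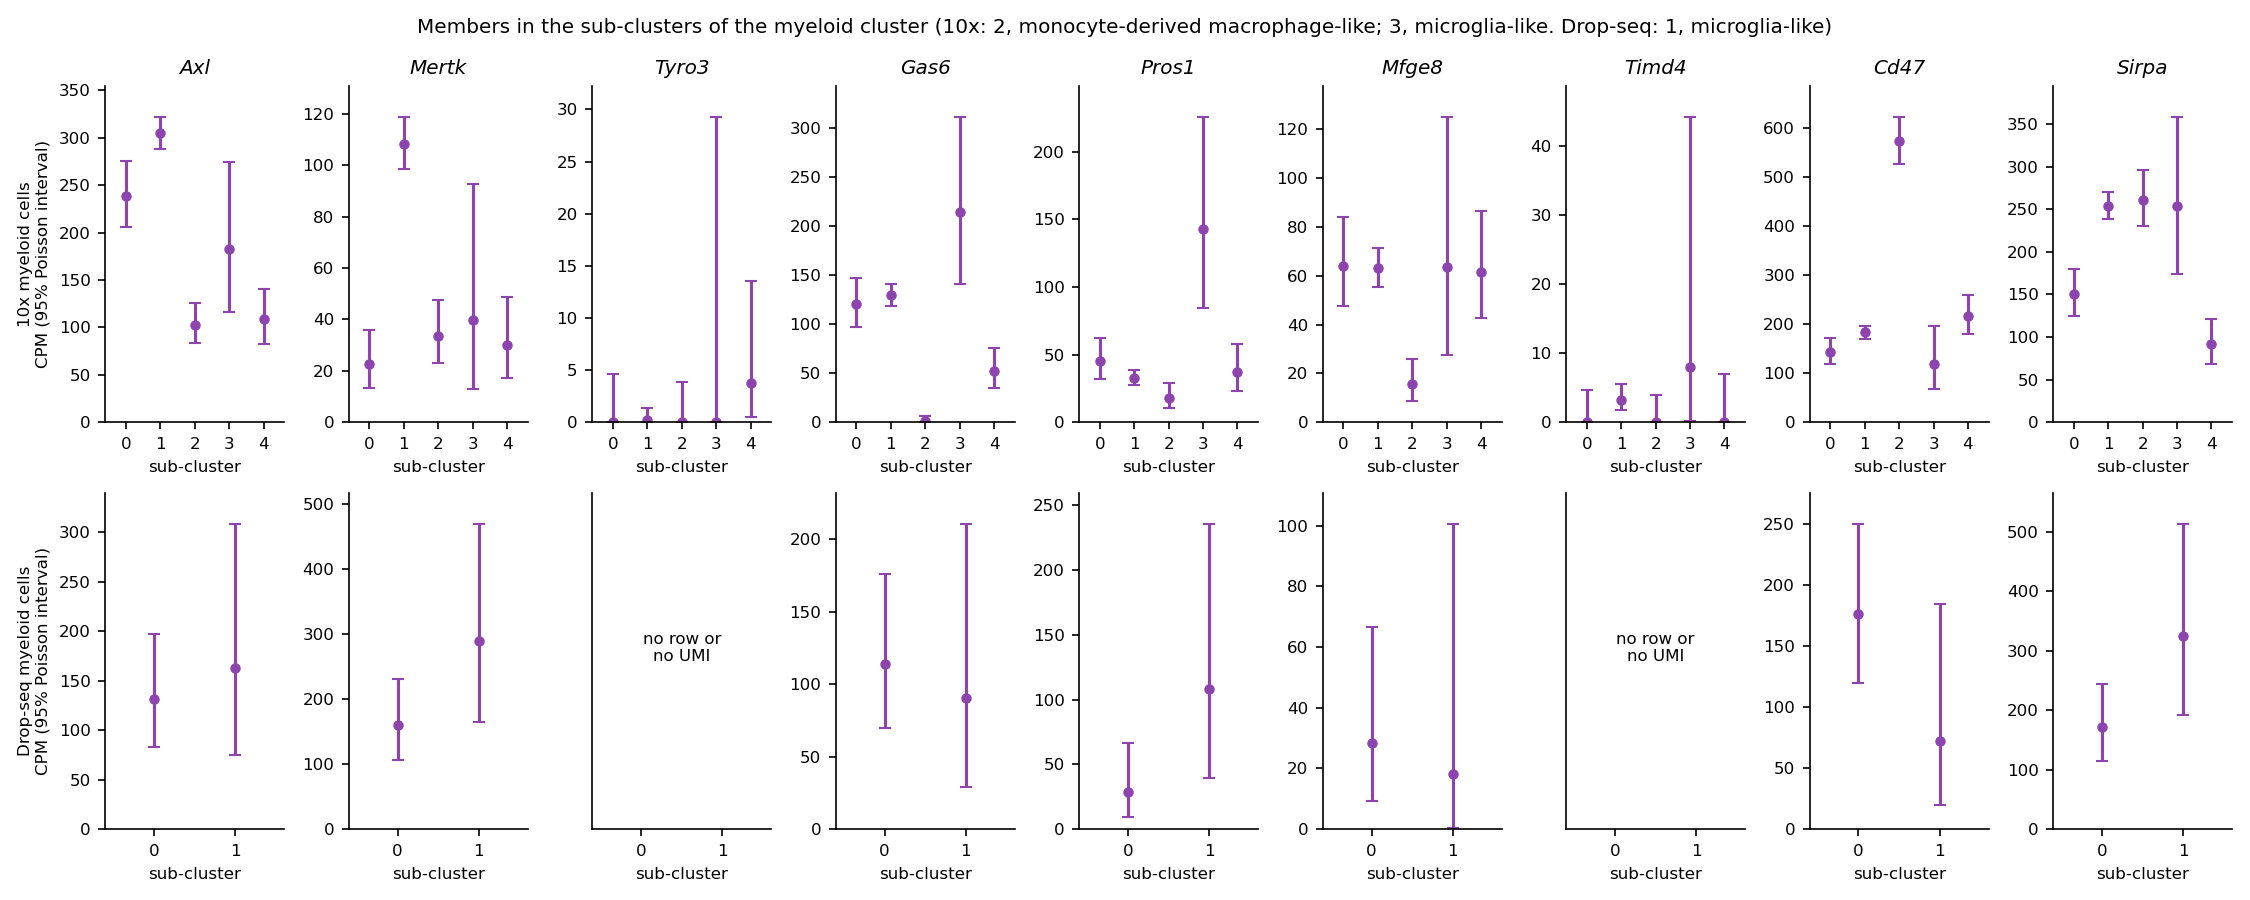
CPM of each member (panels, linear axes) in the sub-clusters of the 10x myeloid cells (top) and the Drop-seq myeloid cells (bottom), points with exact 95% Poisson intervals that cover counting error only. Gas6 falls to 1.05 CPM in 10x sub-cluster 2 (monocyte-derived macrophage-like), where Cd47 peaks at 574 CPM, and Pros1 is highest in the microglia-like sub-clusters (143 CPM in 10x, 108.4 CPM in Drop-seq).

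The 3 bulk tables were normalised separately, so levels across them stand only side by side. Per kb of exon, Axl was the highest of the members in the tumours: 215 ± 62.4 CPM per kb in PLX3397 Ras tumours and 210 ± 11.1 CPM per kb in vehicle Ras tumours (SD, n = 4 each). In PLX3397 tumours the next genes were Mfge8 (42.4 CPM per kb), Sirpa (31.9) and Gas6 (24.8), then Cd47 (15.7), Pros1 (15.3), Tyro3 (11.7) and Mertk (11.0), and no neighbours from Mfge8 down to Mertk were separated by their ranges. The vehicle tumours gave Sirpa (43.3) and Mfge8 (42.9) next to Axl, then Gas6 (22.8), Cd47 (15.3), Mertk (14.2), Pros1 (12.8) and Tyro3 (10.1). Timd4 was last in both, at 0.0417 CPM per kb in PLX3397 tumours and 0.668 CPM per kb in vehicle tumours.

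In the PLX3397 CD11b-positive cells the order per kb was led by Axl (227 CPM per kb) and Sirpa (215), followed by Gas6 (114) and Mertk (100), with Tyro3 last at 1.96 CPM per kb. In the vehicle library the order of these was the same, with Axl at 255 CPM per kb, Sirpa at 220, Gas6 at 102, Mertk at 79.8 and Tyro3 last at 0.399. In the Ras lines Gas6 (94.6 CPM per kb) and Axl (69.6) were highest with ranges that overlap, and in the PDGF lines Gas6 (39.8) and Mfge8 (22.9) were. Mertk was low in both kinds of line, at 1.80 CPM per kb in Ras lines and 0.707 CPM per kb in PDGF lines. The Axl to Mertk ratio per kb was 2.20 and 2.35 in the PLX3397 CD11b libraries, against 3.20 in the vehicle one, and 13.2 to 28.8 in PLX3397 Ras tumours, against 9.01 to 34.9 in vehicle Ras tumours.

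**Figure D3:**
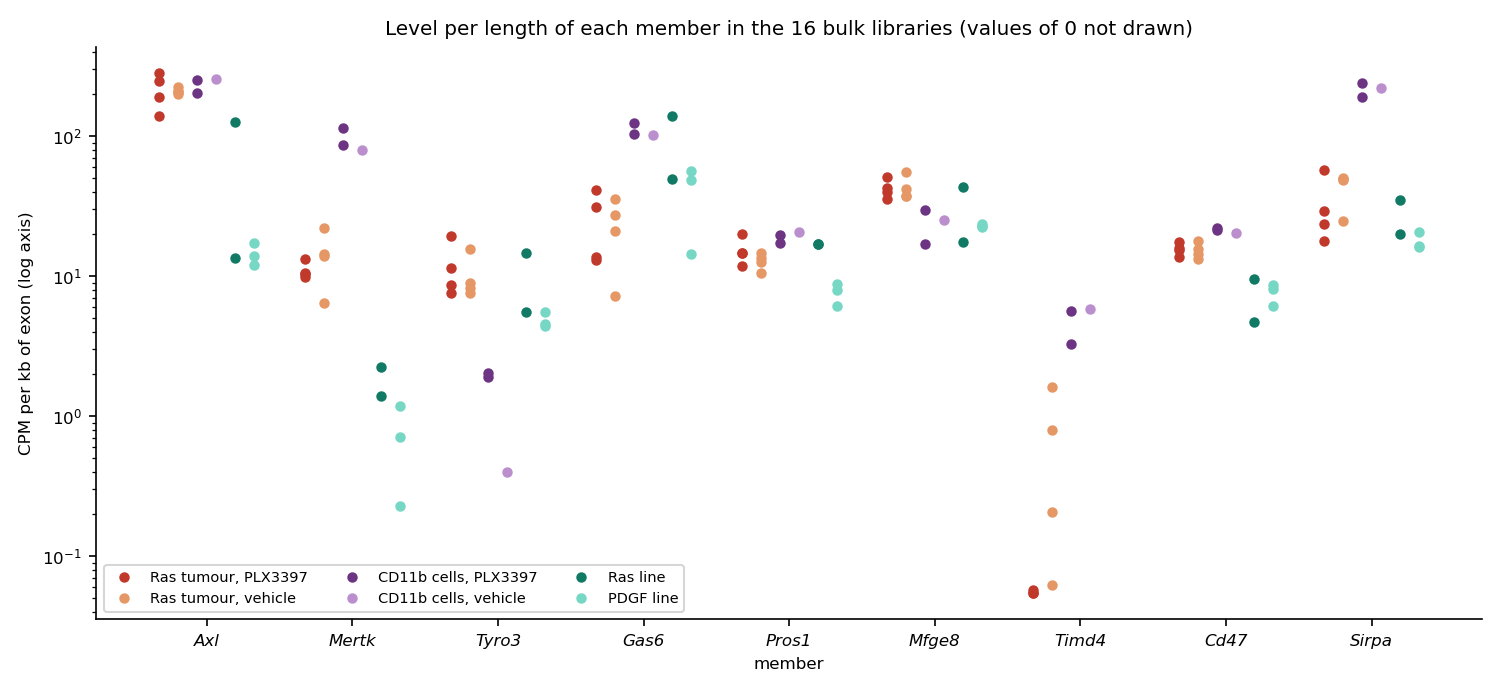
CPM per kb of exon (log axis) of each member in the 16 bulk libraries, 1 point per library, coloured by group with PLX3397 left of vehicle and Ras lines left of PDGF lines. Axl is highest in whole tumours (about 215 and 210 CPM per kb) and in CD11b-positive cells, Timd4 is lowest in the tumours, and Mertk ranges from 0.226 CPM per kb in PDGF line 1 to 113.9 CPM per kb in a PLX3397 library of CD11b-positive cells.

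In the Ras tumours, 0 of the 8 members tested passed the test between PLX3397 and vehicle. The sum of pan-myeloid markers was lower in every PLX3397 tumour than in any vehicle tumour, with 0 of 7 markers called, and Axl had overlapping groups. Axl read 706, 963, 1421 and 1239 CPM in the PLX3397 tumours and 1049, 1002, 1038 and 1134 CPM in the vehicle tumours. The means were 1082 ± 314 CPM and 1056 ± 55.7 CPM (SD, n = 4 each), a log2 fold change of 0.04 (SE 0.21). The vehicle values lay within the range of the PLX3397 values, whose spread was wider. In this comparison 0 of 18366 genes were called (0%), and 648 had an unadjusted p under 0.05 (3.53%). DESeq2 called 169 genes and limma's voom with quality weights 377, and none of them was a member. Here as in all whole-tissue libraries, fewer cells of a type and less RNA per cell cannot be told apart.

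Mertk read 46.0, 57.2, 42.5 and 44.9 CPM in the PLX3397 tumours, against 60.1, 95.8, 62.1 and 28.0 CPM in the vehicle tumours. The vehicle range encloses the PLX3397 values, and the log2 fold change was -0.37 (SE 0.32). It was -0.07 without vehicle replicate 2 and -0.59 without vehicle replicate 4, and not called in either case. For comparison Csf1r, the target of the drug and a myeloid marker, read 173.4, 106.0, 24.6 and 44.3 CPM in PLX3397 tumours and 293.4, 283.0, 270.7 and 154.9 CPM in vehicle tumours, a log2 fold change of -1.52 (SE 0.57) that was not called. Tyro3 read 120.5, 70.5, 53.5 and 46.7 CPM in PLX3397 tumours, against 55.2, 96.7, 51.3 and 47.0 CPM in vehicle tumours (log2 fold change 0.22, SE 0.35). Its highest PLX3397 library, replicate 1, also had the highest astrocyte, oligodendrocyte and neuron sums (3926, 1647 and 2915 CPM), and the part of these in Tyro3 was not tested.

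The ligands overlapped between groups as well. Gas6 read 79.1, 105.5, 33.0 and 35.0 CPM in PLX3397 tumours and 69.7, 90.5, 53.6 and 18.5 CPM in vehicle tumours (0.12, SE 0.53 on the log2 scale). Pros1 read 60.2, 82.2, 48.2 and 59.3 CPM in PLX3397 tumours and 59.4, 51.6, 54.8 and 42.8 CPM in vehicle tumours (0.26, SE 0.18). Mfge8 read 168, 201, 241 and 188 CPM in PLX3397 tumours and 195, 175, 176 and 261 CPM in vehicle tumours (-0.02, SE 0.17). The groups overlapped for all 3 ligands.

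Timd4 was counted 4, 4, 0 and 4 times in the PLX3397 tumours and 116, 14, 63 and 4 times in the vehicle tumours. It did not pass the filter on low counts and was not tested in the main fit. Without the filter its log2 fold change was -3.97 (edgeR adjusted p = 0.739). It passed the filter without PLX3397 replicate 1, 2 or 3, at -4.15, -4.12 and -3.55, and was called in none of these fits. Over each group its counts came to 12 in PLX3397 tumours (0.0890 CPM) and 197 in vehicle tumours (1.51 CPM). The vehicle counts were carried mainly by replicates 1 and 3, and vehicle replicate 4 had the same count, 4, as 3 of the PLX3397 tumours.

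Of the inhibitory pair, Cd47 read 86.7, 96.6, 99.7 and 110.0 CPM in PLX3397 tumours and 111.9, 83.0, 90.2 and 98.1 CPM in vehicle tumours (log2 fold change 0.04, SE 0.13). Sirpa read 281.8, 142.1, 87.8 and 115.8 CPM in PLX3397 tumours, against 239.9, 246.1, 241.7 and 122.1 CPM in vehicle tumours (-0.44, SE 0.39). The Sirpa value was -0.88 without PLX3397 replicate 1, -0.24 without PLX3397 replicate 3 and -1.01 by voom (limma adjusted p = 0.0794), and it was called in none of these. Each group's range overlapped the other's, and the lowest Sirpa values were in PLX3397 replicates 3 and 4, which also had the lowest pan-myeloid sums. All 8 tested members had an adjusted p of 0.9998 in edgeR's quasi-likelihood test and their median log2 fold change was 0.04, against 0.00 over all genes tested. The members' groups overlapped in all 8, and groups did not overlap for 2.53% of all genes tested.

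**Figure D4:**
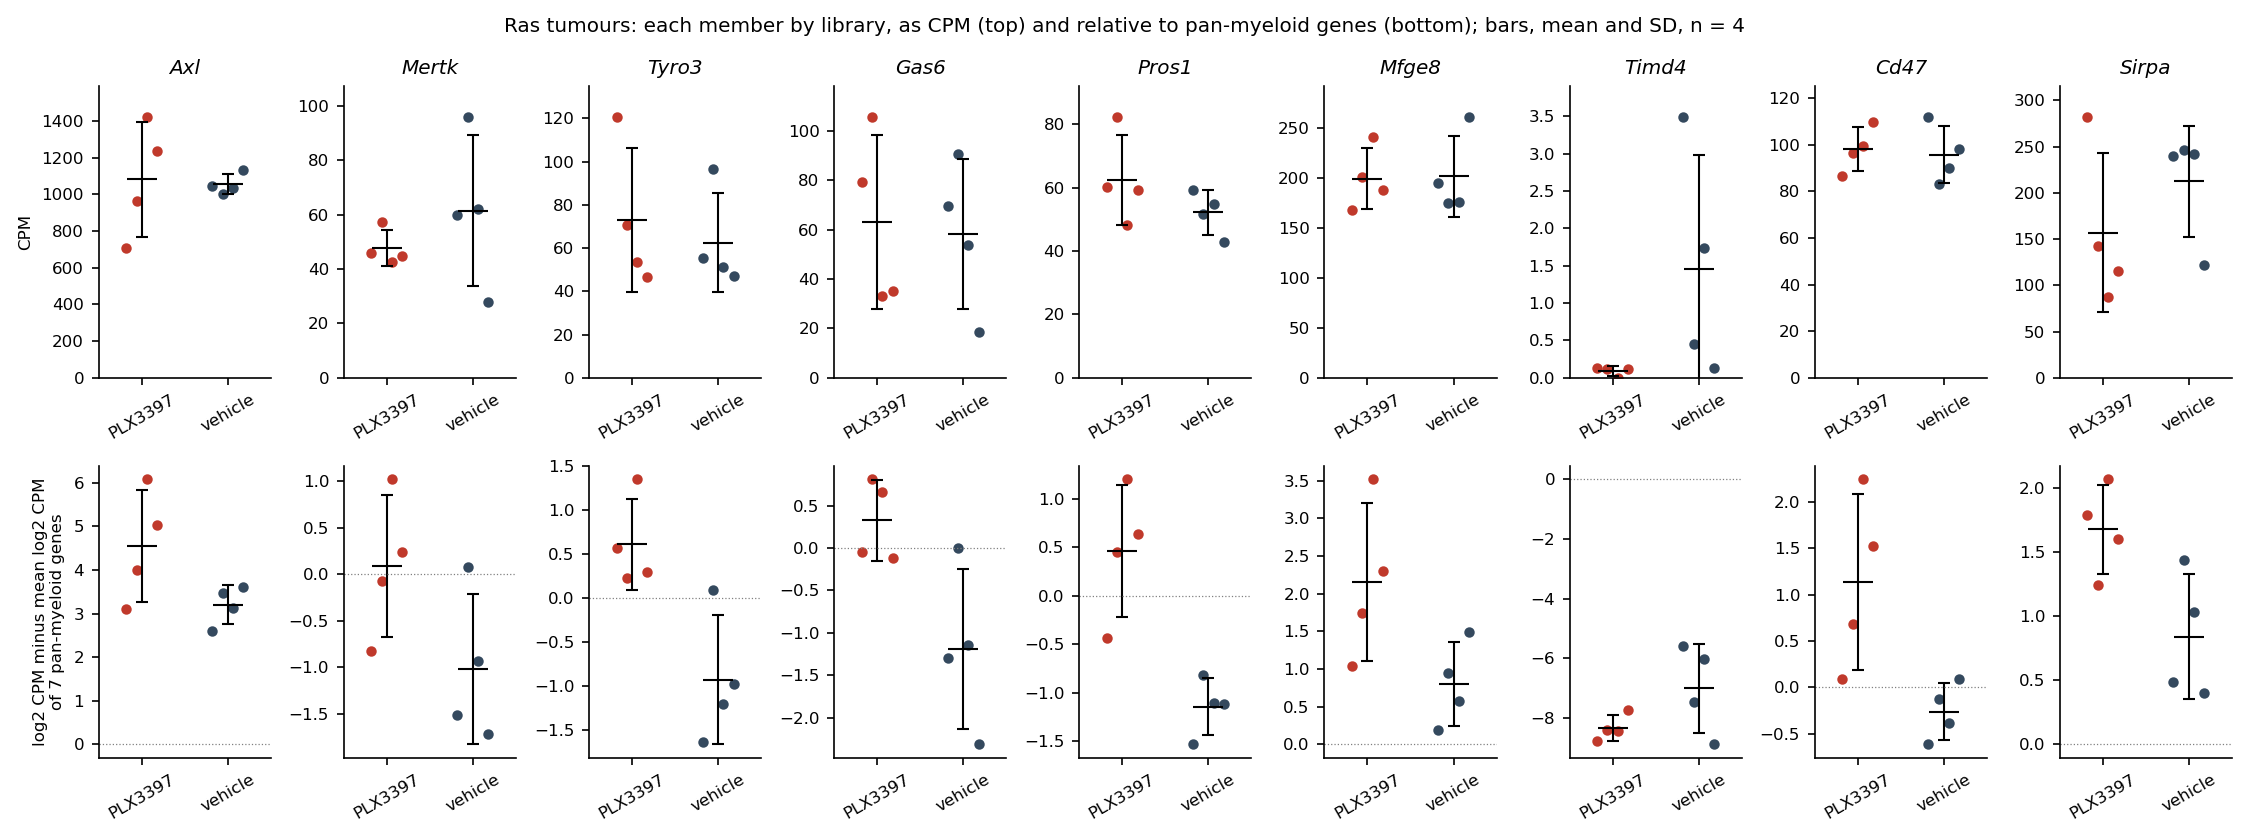
CPM of each member in the Ras tumours (top) and the same relative to the pan-myeloid genes (bottom, log2 CPM minus their mean), with PLX3397 left of vehicle, points for libraries and bars for mean and SD (n = 4 each). The CPM points of both groups overlap for the 8 tested members, and relative to the pan-myeloid genes Tyro3, Pros1 and Cd47 are higher in all PLX3397 libraries.

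Set relative to the pan-myeloid genes (log2 CPM minus the mean log2 CPM of 7 such genes), 3 of the 8 tested members did not overlap between groups, and all 3 were higher in PLX3397 tumours: Tyro3, Pros1 and Cd47. Of all genes tested, 32.2% were likewise higher without overlap and 0.25% lower. The share of members, 3 of 8, is near that of all genes, and nothing particular to these members follows from it. Axl ran 3.11 to 6.08 relative to the pan-myeloid genes in PLX3397 tumours, against 2.61 to 3.62 in vehicle tumours. Mertk ran -0.82 to 1.02 in PLX3397 tumours, against -1.72 to 0.08 in vehicle tumours. Sirpa ran 1.24 to 2.07 in PLX3397 tumours, against 0.40 to 1.44 in vehicle tumours. Ddx3y, a Y-linked gene, was present in replicates 1 and 2 of each group, and within these and within the other libraries the difference in mean log2 CPM was -0.31 and 0.29 for Axl, -0.56 and 0.07 for Mertk, and -0.28 and -0.77 for Sirpa. In the same order it was 0.34 and 0.02 for Tyro3, 0.20 and 0.11 for Gas6, 0.35 and 0.14 for Pros1, -0.01 and -0.01 for Mfge8, and -0.07 and 0.15 for Cd47.

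Among the other efferocytosis genes, 0 of 55 tested in the Ras tumours were called, and 11 had an unadjusted p under 0.05, all lower, against 0.414% of all genes tested that were higher and 3.11% that were lower at that p. The list median was -0.13, against 0.00 over all genes tested. The opsonin genes C1qc (log2 fold change -1.41, SE 0.53) and C1qa (-1.34, SE 0.52), the scavenger receptor gene Stab1 (-0.62, SE 0.17), the engulfment GTPase gene Rhog (-0.52, SE 0.15) and the mitochondrial carrier gene Ucp2 (-1.31, SE 0.44) were among those with the smallest p. Sirpb1b (-2.01, SE 0.42) and Sirpb1a (-1.68, SE 0.44) were too. The pan-myeloid sums moved with them, at 260.9 to 829.4 CPM in PLX3397 tumours and 1007 to 1723 CPM in vehicle tumours, and their part was not tested. Tmem30a, the flippase subunit gene, was at 0.10 (SE 0.09).

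After 3 days of treatment of PDGFB tumours, Tyro3 rose in the CD11b-positive cells and the other 8 of 9 members did not pass the test. Tyro3 read 11.7 and 12.6 CPM in the PLX3397 libraries, against 2.47 CPM in the vehicle library (318 and 386 counts with PLX3397, 74 with vehicle), a log2 fold change of 2.30 (SE 0.29, edgeR adjusted p = 0.0345). Of 15052 genes tested, 956 were called (6.35%), 688 of them higher (4.57%) and 268 lower (1.78%), so 1 of 9 members called stands near the background. Only 1 residual degree of freedom stands behind these p-values, and the spread of the single vehicle library was taken to equal that of the PLX3397 pair. Leaving out either PLX3397 library gave Tyro3 at 2.22 to 2.32, values with no test. Glial, neuronal and stromal markers moved with Tyro3.

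Of the astrocyte markers 6 of 7 rose, with sums of 671 to 707 CPM in the PLX3397 libraries, against 122 CPM in the vehicle library. Of the oligodendrocyte precursor markers 3 of 7 rose (121 to 132 CPM with PLX3397, 29.9 CPM with vehicle) and of the neuron markers 3 of 6 (106 to 113 CPM with PLX3397, 24.0 CPM with vehicle). Of the oligodendrocyte markers 2 of 7 rose (348 to 481 CPM with PLX3397, 207 CPM with vehicle) and of the tumour cell markers 3 of 6 tested (315 to 390 CPM with PLX3397, 112 CPM with vehicle). Of the fibroblast markers 2 of 6 rose (592 to 1053 CPM with PLX3397, 158 CPM with vehicle) and of the pericyte markers 1 of 6 (58.6 to 98.7 CPM with PLX3397, 24.7 CPM with vehicle). None of these lists had a marker at 0 in all libraries except the tumour cell list, with 1. Of the pan-myeloid markers 0 of 7 were called. The part of these cells' RNA in the Tyro3 difference was not tested. In the 10x library of untreated Ras tumours, Tyro3 was at 0.462 CPM in myeloid cells.

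Axl read 1261 and 1028 CPM in the PLX3397 libraries and 1284 CPM in the vehicle library (log2 fold change -0.17, SE 0.24). Mertk read 493.9 and 376.7 CPM in the PLX3397 libraries, against 346.0 CPM in the vehicle library (0.33, SE 0.23, edgeR adjusted p = 0.3998). Both of its PLX3397 values were above the vehicle value, but 41.6% of all genes tested were so, and with a single vehicle library 83.6% lay outside in either direction.

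Gas6 read 314.0 and 265.0 CPM in the PLX3397 libraries and 259.5 CPM in the vehicle library (0.16, SE 0.19). Pros1 read 80.3 and 70.1 CPM with PLX3397, against 84.0 CPM with vehicle (-0.16, SE 0.16). Mfge8 read 80.0 and 139.2 CPM with PLX3397, against 117.7 CPM with vehicle (-0.10, SE 0.35). Timd4, which marks resident macrophages, read 12.1 and 7.12 CPM with PLX3397, against 12.7 CPM with vehicle (-0.39, SE 0.38). None of these 4 passed the test, and the 2 PLX3397 libraries lay on both sides of the vehicle value for Mfge8.

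Cd47 read 138.3 and 133.1 CPM in the PLX3397 libraries and 127.4 CPM in the vehicle library (0.09, SE 0.15). Sirpa read 1180 and 930 CPM with PLX3397, against 1082 CPM with vehicle (-0.04, SE 0.25). The members' median log2 fold change was -0.04, against 0.01 over all genes tested. Dividing-cell genes moved with the treatment, 4 of 6 lower, with sums of 210 to 309 CPM in the PLX3397 libraries, against 987 CPM in the vehicle library.

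Of the other efferocytosis genes, 2 of 57 tested rose and 4 fell in the CD11b-positive cells, where 4.57% of all genes tested rose and 1.78% fell. Megf10, a phagocytic receptor gene of astrocytes, was higher (2.6, SE 0.36, edgeR adjusted p = 0.0390), as was Twist1, a transcription factor gene of the TAM feedback list (2.11, SE 0.33, adjusted p = 0.0435). The glial and stromal marker sums given for Tyro3 moved with both, and their part in these values was not tested. Elmo1, which with DOCK1 drives engulfment through RAC, was lower (-0.81, SE 0.14, adjusted p = 0.0473). Sirpb1c (-1.34, SE 0.16, adjusted p = 0.0345), Sirpb1b (-1.15, SE 0.16, adjusted p = 0.0390) and Sirpb1a (-1.09, SE 0.17, adjusted p = 0.0426) were lower too, and since these paralogs are close to one another and to Sirpa, counting may have split their reads, so the values are uncertain. The after-uptake genes Abca1 (0.65, SE 0.24) and Rxra (0.66, SE 0.24) did not pass.

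In the cell lines, 0 of the 8 members tested were called between Ras and PDGF lines, and Axl had the largest fitted change. Axl read 632.2 and 68.2 CPM in Ras lines, against 60.8, 86.1 and 69.9 CPM in PDGF lines (log2 fold change 2.28, SE 0.88, edgeR adjusted p = 0.308). Ras line 1 alone was high, and Ras line 2 lay among the PDGF lines. Of 17475 genes tested 0 were called (0%), and 2842 had an unadjusted p under 0.05 (16.3%). DESeq2 called 2110 genes and, of the members, Pros1.

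Mertk was low, at 9.65 and 6.0 CPM in Ras lines, against 0.981, 3.06 and 5.15 CPM in PDGF lines (1.35, SE 0.76). PDGF line 3, highest of the PDGF lines for Mertk, also had the highest pan-myeloid sum, and the part of that in Mertk was not tested. Tyro3 read 91.1 and 34.2 CPM in Ras lines, against 27.3, 28.3 and 34.2 CPM in PDGF lines (1.07, SE 0.44). Its groups did not overlap, but Ras line 2 (34.25 CPM) and PDGF line 3 were nearly at the same level.

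Pros1 was the most even of the members across the Ras lines. It read 68.9 and 68.9 CPM in Ras lines, against 25.1, 32.5 and 35.8 CPM in PDGF lines, a log2 fold change of 1.15 (SE 0.22) with edgeR adjusted p = 0.209 and unadjusted p = 0.00338. DESeq2 gave it an adjusted p of 0.000725. Gas6 read 356.0 and 126.1 CPM in Ras lines, against 123.8, 36.9 and 143.3 CPM in PDGF lines (1.25, SE 0.72), with overlap. Mfge8 read 201.9 and 82.6 CPM in Ras lines, against 106.7, 105.0 and 110.8 CPM in PDGF lines (0.40, SE 0.40), with the Ras lines on either side.

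Timd4 was at 0 counts in all 5 lines, which allows up to 0.0457 CPM over the Ras lines and 0.0296 CPM over the PDGF lines. Cd47 read 59.6 and 29.5 CPM in Ras lines, against 50.5, 54.1 and 38.5 CPM in PDGF lines (-0.10, SE 0.37). Sirpa read 172.7 and 98.8 CPM in Ras lines, against 79.7, 102.1 and 81.2 CPM in PDGF lines (0.63, SE 0.30). Both kinds of line carried Sirpa, with pan-myeloid sums of at most 94.3 CPM. In the lines 3 of the 8 tested members did not overlap between groups (Mertk, Tyro3, Pros1, all higher in Ras lines), where 38.6% of all genes tested did not overlap and 17.9% were higher without overlap.

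Leaving out Ras line 2 gave log2 fold changes of 3.11 for Axl, 1.58 for Tyro3 and 0.89 for Mfge8. Only 1 Ras line then remained, its spread was taken to equal that among PDGF lines, and no call is drawn from that fit. Without Ras line 1 Axl was at -0.08. The Axl value above 0 thus rests on Ras line 1. Marker sums also set that line apart, with pericyte markers at 142 CPM, against 0.948 to 3.85 CPM in the other 4 lines, and endothelial markers at 57.7 CPM, against 7.07 to 21.6 CPM. Its tumour cell markers summed to 793 CPM, against 2145 to 3713 CPM in the other lines, and the part of these in Axl was not tested.

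**Figure D5:**
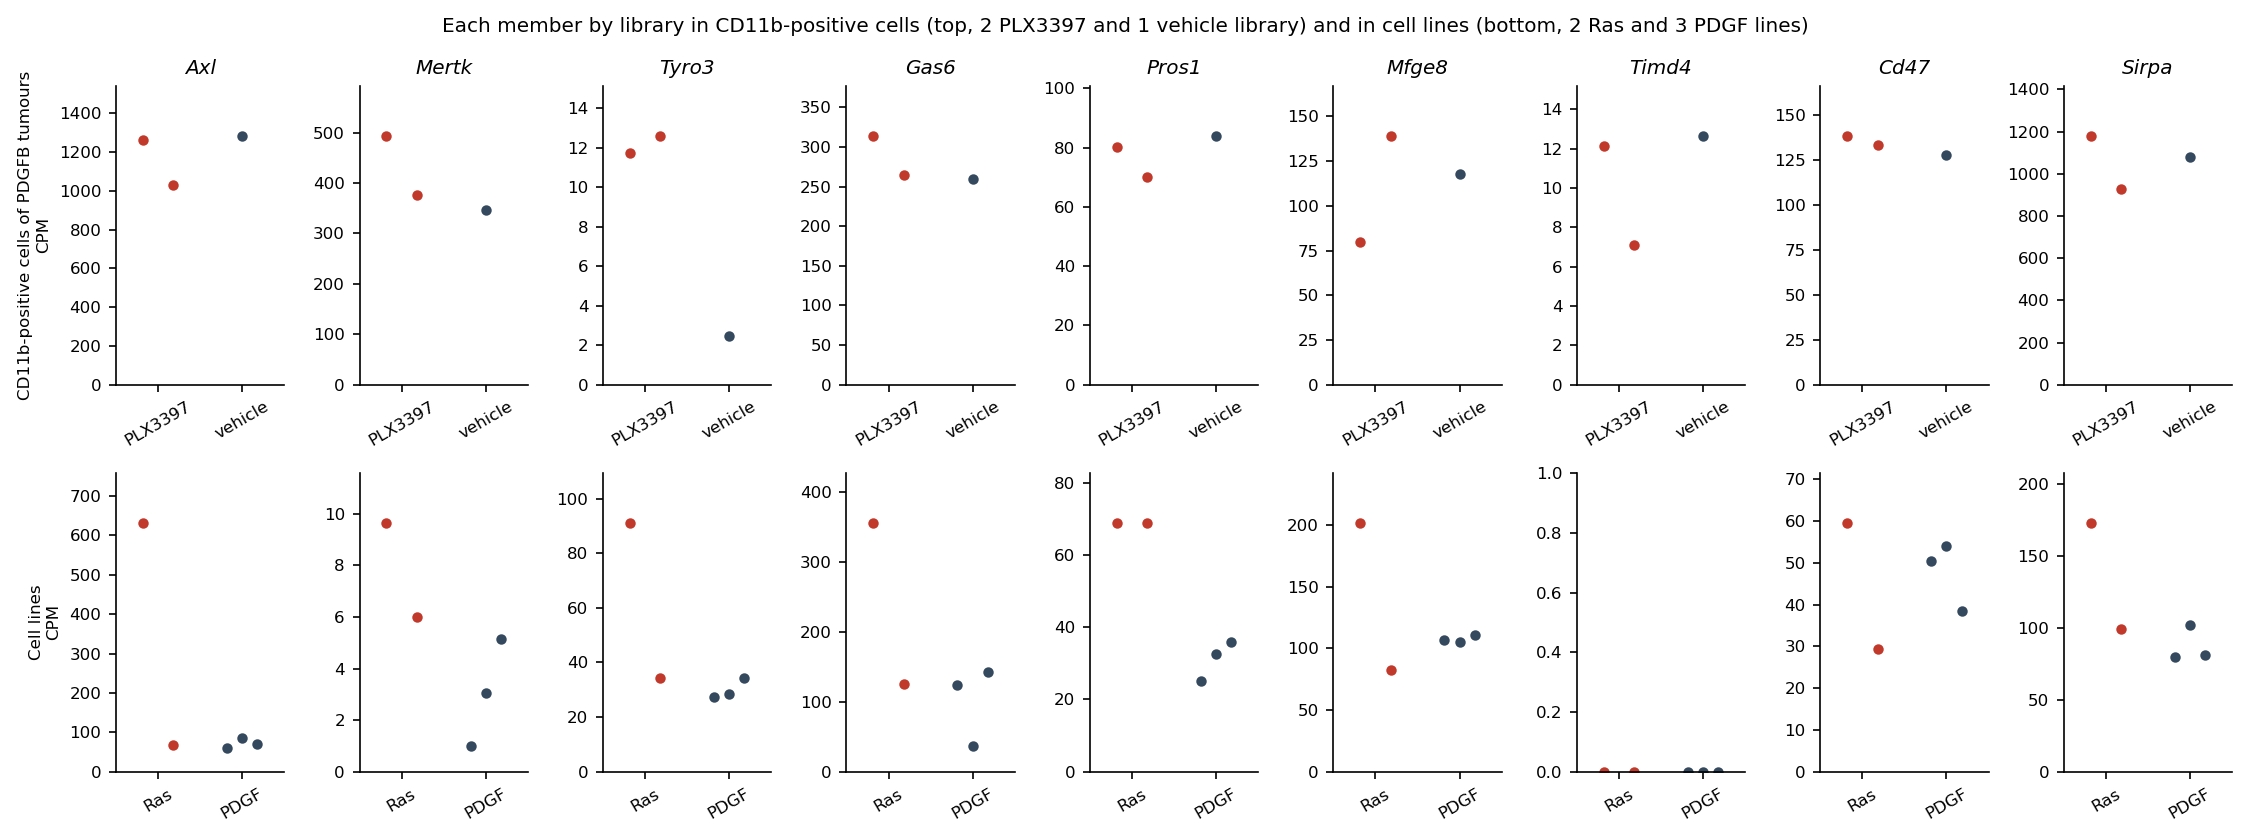
CPM of each member by library in CD11b-positive cells of PDGFB tumours (top, PLX3397 left of vehicle, 2 and 1 libraries) and in cell lines (bottom, Ras left of PDGF, 2 and 3 lines). Tyro3 is at 11.7 and 12.6 CPM in the PLX3397 libraries against 2.47 CPM in vehicle, and Axl is at 632.2 CPM in Ras line 1 and 60.8 to 86.1 CPM in the other lines.

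Of the other efferocytosis genes, 0 of 46 tested in the lines were called, 11 were higher and 1 lower at an unadjusted p under 0.05, where 8.8% of all genes tested were higher and 7.46% lower. Their median log2 fold change was 0.41, against 0.01 over all genes tested. All 6 genes of the shedding and feedback list were above 0, with a median of 1.57, where 8888 of 17475 genes tested were above 0. The smallest p belonged to Adam10, which encodes a protease that cleaves TAM receptors (1.57, SE 0.31), and to Twist1 (8.28, SE 1.76). Integrin beta-5 (Itgb5, 5.39, SE 1.46), the phosphatidylserine-binding Anxa5 (6.02, SE 1.33) and Vav3 (3.44, SE 0.58), an exchange factor gene for RAC, had positive values, and Edil3, a relative of Mfge8, was at -2.72 (SE 0.52). None of them was called. The 2 Ras lines differed widely, at 16.9 and 319 CPM for Itgb5, 92.7 and 712 CPM for Anxa5 and 7.60 and 38.3 CPM for Twist1. In each case both were above the PDGF lines.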

How the data were processed

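The members and the gene lists were chosen with earlier results of these data known. Bulk RNA-seq covered 16 libraries and single-cell RNA-seq 2, grouped by the labels. The deposited bulk tables hold counts per gene symbol and the deposited single-cell tables hold counts of UMIs per gene and cell, with no normalization by the authors. The submitters' processing notes name GRCm38, the aligner STAR 2.6.1e, the counter featureCounts 1.6.2, the trimmers cutadapt 1.9.1 and Trim Galore 0.4.2, and the quality tool FastQC 0.11.7, without saying which files each made, and per the file headers the 10x matrix came from Cell Ranger 3.1.0. Whether counting used strand is not given in the sources used here, so reads of overlapping antisense genes cannot be told apart. Date-like names (27 entries, at most 0.360% of a library) and 1 unnamed entry were left out, and 5 columns of the line table that matched no sample were not used.

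Each bulk comparison was fitted alone with edgeR 4.0.16 in R 4.3.3 (quasi-likelihood, robust, TMM, filterByExpr), adjusted by Benjamini-Hochberg over all genes tested, and checked on simulated data. Log2 CPM used a prior count of 2. Alternatives were DESeq2 1.42.0, limma 3.58.1 voom with quality weights, RLE scaling, no filter, leaving out each replicate, a replicate block and a Ddx3y term. Exon lengths came from GENCODE for GRCm38.

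The 10x cells needed 500 UMIs and 300 genes, the Drop-seq cells 300 UMIs and 200 genes, and mitochondrial UMIs could reach 20% in both. They were clustered with scanpy 1.11.5 in Python 3.11.15 (2000 variable genes, 30 components, 15 neighbours, Leiden at 0.5). Scrublet called 0 doublets in both libraries, which is not a usable result, and doublets remain in the data. Clusters were named from the list with the largest share of its markers at 2-fold, with at least 3 such markers. At least 1 marker of that list had to be among the 10 leading genes. No other list could reach the same share or as many of the leading genes. Poisson and binomial (Clopper-Pearson) intervals are exact at 95% and cover counting error only. In bulk a count of 0 was bounded by 3 counts, and in single cells by the upper limit of the exact Poisson interval. Named beside the members were, per list and comparison, every called gene up to 4 and otherwise up to 2 with the smallest p, and the 3 genes closest to Axl, Mertk and Gas6. The single-cell counts of 1 of the 7 gene lists are not reported here.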

Additional observations from a re-analysis of the deposited data

Results flagged for a closer look

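In 18 groups of 4 Ras tumour libraries (9 members in each treatment), 3 groups had 1 library far from its fellows by Dixon's 95% criterion, and chance flags about 1 in 20. Timd4 was at 0 CPM in PLX3397 replicate 3, where the other PLX3397 tumours had 0.118 to 0.125 CPM, a gap of 4 counts. Sirpa was 122 CPM in vehicle replicate 4, where the other vehicle tumours had 239.9 to 246.1 CPM. That library also had the lowest vehicle levels of Mertk (28.0 CPM), Gas6 (18.5 CPM), Csf1r (154.9 CPM) and the astrocyte sum (474 CPM, against 1409 to 2904 CPM in the other vehicle tumours). Tyro3 was 96.7 CPM in vehicle replicate 2, where the other vehicle tumours had 47.0 to 55.2 CPM, and that library had the highest neuron sum of the vehicle tumours, 2778 CPM. The part of these sums in the values was not tested.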

How the results depend on the processing

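The number of members called was 0 in the Ras tumours under every alternative, and 1 (Tyro3) in the CD11b-positive cells under RLE scaling (adjusted p = 0.0294), DESeq2 (adjusted p = 2.71e-05) and no filter (adjusted p = 0.00848). Genes called in the Ras tumours were 169 by DESeq2, 377 by voom and 1 without the filter, in the CD11b-positive cells 1959 by DESeq2 and 1907 without the filter, and in the lines 2110 by DESeq2 (1 member) and 1 without the filter. Leaving out 1 line gave 0 to 2111 genes and 0 to 3 members. Small values changed sign. In the Ras tumours Mfge8 was 0.00677 with RLE scaling, 0.00679 by DESeq2 and 0.12 by voom, Tyro3 was -0.17 and Gas6 -0.57 by voom, and Axl was -0.00224 with a Ddx3y term. Leaving out 1 Ras tumour at a time gave -0.12 to 0.19 for Axl, -0.59 to -0.07 for Mertk, -0.88 to -0.24 for Sirpa, -0.14 to 0.51 for Tyro3, -0.25 to 0.42 for Gas6, -0.12 to 0.15 for Mfge8 and -0.027 to 0.15 for Cd47. In the lines it gave -0.083 to 3.11 for Axl, -0.38 to 0.89 for Mfge8 and -0.69 to 0.30 for Cd47. In the CD11b-positive cells, values with no test, it gave -0.56 to 0.24 for Mfge8 and -0.22 to 0.13 for Sirpa. The causes were not tested.

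With the replicate number as a replicate block, Axl was -0.011 in the Ras tumours and 1.52 in the lines, Mertk was 2.12 in the lines, and 0 members were called in both. In the Ras tumours same-numbered libraries deviated with correlations of 0.11, 0.13, -0.42 and 0.45. Not every sample correlated best with its own number, and no pairing by number was seen there. In the lines the correlations were -0.18 and -0.11. With 2 Ras lines the deviations from their mean are mirror images, so these values cannot decide whether the numbers pair the lines. For the CD11b-positive cells alone, no paired analysis was possible because those groups share only 1 number. The number of members higher in myeloid cells, by any margin, was 6 in 10x and 4 in Drop-seq under every alternative run. Myeloid cells of an alternative were the clusters made mostly of cells from the first myeloid cluster. Largely the same cells were therefore counted again, and agreement was largely built in. The share of all genes higher by any margin was not counted. Counting error limits Tyro3 and Timd4 in single cells, and 1 vehicle library limits the CD11b comparison.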
